A study of Mus musculus with 11 samples.

Results

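Glyceroneogenesis and glycerol handling were described by 7 genes: Pck1, Pck2, Gyk, Gpd1, Gpd2, Aqp7 and Aqp3. They were the genes whose symbol equalled 1 of 8 listed symbols, of which Gk and Gyk are both names of glycerol kinase and Gyk was the one used in the files, out of 29955 gene symbols in all. RNA-seq had been performed in 11 libraries of im-scWAT, a mouse preadipocyte line derived from inguinal subcutaneous white adipose tissue and immortalized with large T antigen, to compare white and beige adipocyte differentiation and the effect of JMJD1A, a histone H3K9 demethylase. The time course held 6 untransduced libraries: 2 of day 0, before treatment, 1 each of days 4 and 8 with rosiglitazone (ROS, a PPARγ agonist, 0.5 μM; ROS plus) and 1 each of days 4 and 8 without it (ROS minus). The other 5 libraries were of day 8 with ROS, and all 5 carried the same retroviral shRNA against mouse Jmjd1a (sh-mJmjd1a) with human JMJD1A expressed from a retroviral LTR promoter: WT-hJMJD1A in 2 libraries (WT A and WT B), S265A-hJMJD1A in 1, S265D-hJMJD1A in 1 and S265D-H1120Y-hJMJD1A in 1. S265 is the serine that protein kinase A phosphorylates, and H1120Y removes the demethylase activity. Every differentiating culture was induced with T3 at 1 nM, insulin at 5 μg/ml, the phosphodiesterase inhibitor IBMX at 0.5 mM, dexamethasone at 5 μM and indomethacin at 0.125 mM. The day 0 pair carries the labels ROS plus and ROS minus although ROS is first added on day 0, so both were taken as untreated. The labels take ROS out of the medium on day 7 unless otherwise stated, whereas the methods of the study keep it to the end, so whether it was present in the last day of culture is not settled. There is 1 library per group outside the day 0 and WT pairs, no label says that the members of a pair came from separate cultures, and p-values measure only the spread between these samples.

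Adipocytes store fatty acids as triglyceride, and each triglyceride needs glycerol-3-phosphate as its backbone. White adipocytes make it from glucose through dihydroxyacetone phosphate or, in fasting, from pyruvate and lactate by glyceroneogenesis, whose controlling step is phosphoenolpyruvate carboxykinase. Glycerol freed by lipolysis leaves the cell through aquaglyceroporins, and a cell with glycerol kinase, such as a brown adipocyte, can also use it again.

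The genes lie on 5 chromosomes (mm9, protein coding). Pck1, the cytosolic phosphoenolpyruvate carboxykinase, is at chr2:172978574-172984754 (+), and Pck2, the mitochondrial form, is at chr14:56159103-56168854 (+). Gpd1, the cytosolic glycerol-3-phosphate dehydrogenase that reduces dihydroxyacetone phosphate, is at chr15:99548024-99555438 (+), and Gpd2, the mitochondrial enzyme that runs the reverse reaction, is at chr2:57090793-57223130 (+). Gyk, which phosphorylates glycerol, is at chrX:82947276-83022158 (-). The aquaglyceroporins Aqp7, the main glycerol channel of adipocytes, and Aqp3, better known from epidermis and kidney, are neighbours at chr4:40980107-40995169 (-) and chr4:41039757-41045216 (-).

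The sequences just before the transcription start are given for both phosphoenolpyruvate carboxykinases, 2 forms of one enzyme with unlike levels across the libraries, and for the glycerol kinase and the adipocyte glycerol channel, which together with Pck1 differed most between ROS plus and minus on day 8. They are the 150 bases before the RefSeq start (GRCm38.p6, a later build than mm9), written on the gene's strand, with capitals for matches on either strand to 5 short motifs. These were TTACGTCA, known as the cAMP response element of Pck1, GGGCGG, known as the GC box, AGGTCA, which many nuclear receptors bind, TATAAA, the usual box near a start site, and also CCAAT, bound by NF-Y.
Pck1, chr2:173152923-173153072 (+): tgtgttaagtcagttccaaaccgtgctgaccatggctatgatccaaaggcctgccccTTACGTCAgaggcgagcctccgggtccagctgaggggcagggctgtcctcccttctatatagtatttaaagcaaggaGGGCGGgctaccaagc
Pck2, chr14:55540116-55540265 (+): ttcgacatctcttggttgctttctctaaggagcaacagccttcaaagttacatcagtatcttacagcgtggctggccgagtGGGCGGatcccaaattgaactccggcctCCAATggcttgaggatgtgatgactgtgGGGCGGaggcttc
Gyk (RefSeq Gk), chrX:85776820-85776969 (-): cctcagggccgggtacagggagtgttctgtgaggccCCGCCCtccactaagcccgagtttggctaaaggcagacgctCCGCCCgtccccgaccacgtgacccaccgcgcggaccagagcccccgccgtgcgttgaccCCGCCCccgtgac
Aqp7, the start farther upstream, chr4:41048137-41048286 (-): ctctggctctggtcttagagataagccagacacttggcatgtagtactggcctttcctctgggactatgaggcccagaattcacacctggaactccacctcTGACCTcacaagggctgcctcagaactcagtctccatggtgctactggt
RefSeq starts were given for 6 of the 7 genes, all but Gpd1. TTACGTCA stood 93 bases before the Pck1 start, but it was chosen because it is known from Pck1, so this match tests nothing. It stood in none of the other windows of the 6 genes, and 0.368% of all 32851 RefSeq windows of this length hold it. GGGCGG stood once in the Pck1 window, 2 times in the Pck2 window and 3 times in the Gyk window, and 28.6% of all windows hold it. CCAAT stood 41 bases before the Pck2 start and is in 24.5% of windows. AGGTCA was met on the reverse strand 49 bases before the Aqp7 start printed above and 101 bases before its second start, and 8.58% of windows hold it. TATAAA was in none of the 4 windows printed, stood 29 bases before the Aqp3 start, and is in 7.57% of windows. A match is a run of letters, not a shown binding site.

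The libraries held 3.10 to 5.29 Gb of mapped bases. As a check of the cell type, all 8 adipocyte markers, among them Adipoq and Fabp4, were at least 2-fold above day 0 in each of the 4 differentiated libraries of the time course, with a summed level of 285 to 287 FPKM on day 0 and 9912 to 35091 FPKM on days 4 and 8. Of 5 macrophage markers, the defining Emr1 and Ptprc were at 0 everywhere, and the summed level was 2.77 to 2.78 FPKM on day 0, 0.602 to 4.43 FPKM in the differentiated time course and 5.13 to 22.0 FPKM in the transduced libraries, nearly all of it Cd68. Of 4 skeletal muscle markers, Ckm, Myh4 and Myog were at 0 everywhere, while Acta1 was at 0.224 to 1.44 FPKM in the time course, 1.40 in WT A, 19.3 in WT B, 2.54 in S265A, 6.07 in S265D and 9.22 in S265D-H1120Y. The summed level of 4 endothelial markers reached at most 4.00 FPKM and of 4 hepatocyte markers 3.99 FPKM. The level of mouse Jmjd1a (Kdm3a), the shRNA target, was 20.4 and 17.9 FPKM in WT A and WT B, 13.03 in S265A, 23.0 in S265D and 28.5 in S265D-H1120Y, against 21.1 FPKM in the untransduced day 8 ROS plus library. The knockdown was thus not visible in this column, in which reads of the human transgene were not set apart, and the transduced libraries are named as labelled.

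During differentiation 6 of the 7 genes rose and Aqp3 fell. Pck1, Pck2, Gyk, Gpd1, Gpd2 and Aqp7 were higher in all 9 libraries of days 4 and 8 than in both of day 0, as were 20.3% of all genes, and Aqp3 was lower in all 9, as were 23.1% of all genes. The largest changes in the mean of the 4 differentiated libraries of the time course were those of Gpd1 and Aqp7.

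Pck1 was listed at 0 FPKM in both day 0 libraries. It was at 0.150 FPKM on day 4 with ROS and 0.196 FPKM without, then at 2.04 FPKM on day 8 with ROS and 0.306 FPKM without. In the transduced cells it was at 3.46 FPKM in WT A, 0.734 in WT B, 1.92 in S265A, 1.22 in S265D and 0.249 in S265D-H1120Y. Detection of Pck1 thus came with differentiation, and its higher levels were all in day 8 libraries that had been given ROS, although S265D-H1120Y, also given ROS, stood below the day 8 ROS minus library. These levels were low: 1988 mapped bases on day 4 with ROS grew to 27137 on day 8, and its values rested on 3479 bases in the day 8 ROS minus library, 2987 in S265D-H1120Y and 7054 in WT B. Even in the day 8 ROS plus library, Pck1 was only the 10556th of 29955 genes by FPKM.

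Pck2 was already expressed in preadipocytes, at 27.7 and 30.6 FPKM. It was at 81.1 FPKM on day 4 with ROS, 67.1 FPKM without, 103 FPKM on day 8 with ROS and 84.1 FPKM without. The transduced libraries were spread from 30.9 FPKM in WT A and 39.1 in S265D to 65.6 in S265D-H1120Y, 68.9 in S265A and 69.7 in WT B. Among differentiated cells WT A was therefore just above day 0, and the untransduced libraries were above the transduced ones except that WT B and S265A exceeded the day 4 ROS minus library. FPKM is per kilobase of transcript, so the isoenzymes can be compared: the level of Pck2 was above that of Pck1 in every library, by 8.95-fold in WT A up to 540-fold on day 4 with ROS (median 94.9 over the 9 differentiated libraries).

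Gpd1 changed from near absence to one of the most abundant transcripts. It was at 0.153 and 0.222 FPKM on day 0, and at 1140 FPKM on day 4 with ROS, 657 FPKM without, 1794 FPKM on day 8 with ROS and 745 FPKM without. It was at 1188 FPKM in WT A, 864 in WT B, 781 in S265A, 725 in S265D and 406 in S265D-H1120Y. Gpd1 ranked 24th of 29955 genes on day 8 with ROS and 14251st and 13741st in the day 0 libraries, and the day 0 and differentiated values did not come near each other. Its rise over the day 0 mean on the log2(FPKM + 0.1) scale was from 11.16 on day 4 without ROS to 12.61 on day 8 with ROS.

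Gpd2, which passes the electrons of glycerol-3-phosphate to the respiratory chain, was at 10.96 and 10.74 FPKM on day 0. It was at 31.4 FPKM on day 4 with ROS, 35.3 FPKM without, 47.1 FPKM on day 8 with ROS and 39.8 FPKM without. The transduced libraries ranged from 14.5 FPKM in S265D-H1120Y and 17.5 in WT B through 27.7 in S265A and 30.3 in S265D to 65.6 in WT A. The differentiated values thus stayed above day 0 but WT A and WT B lay at nearly opposite ends of their order. The ratio of Gpd1 to Gpd2 in FPKM was 0.0139 and 0.0207 on day 0 and 18.1 to 49.4 in the 9 differentiated libraries. The more abundant of both transcripts thus changed from that of the mitochondrial enzyme to that of the cytosolic one.

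**Figure D1:**
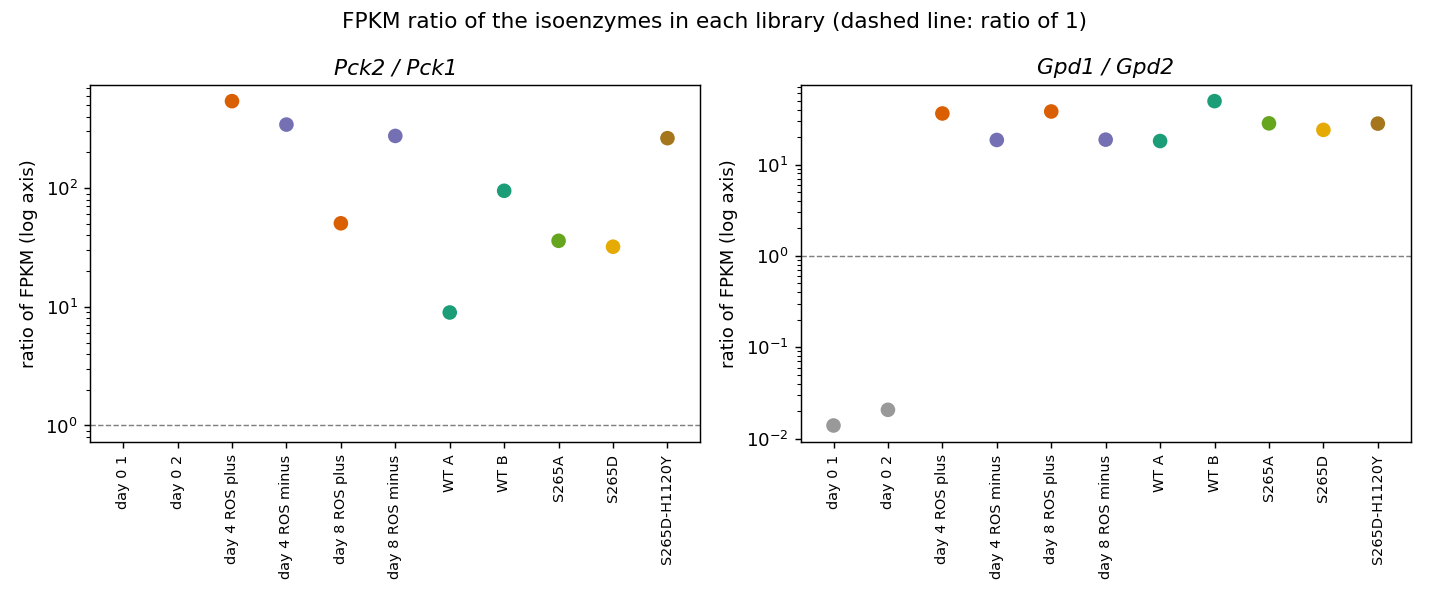
Ratio of the FPKM of Pck2 to Pck1 (left) and of Gpd1 to Gpd2 (right), 1 point per library, on log axes with a dashed line at a ratio of 1; the Pck2 ratio has no value on day 0, where Pck1 was listed at 0. Pck2 exceeded Pck1 in all 9 differentiated libraries, least in WT A (8.95), and Gpd1 was below Gpd2 on day 0 and at least 18.1-fold above it in every differentiated library.

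Gyk, whose product puts free glycerol back into glycerol-3-phosphate, was at 2.87 and 2.63 FPKM on day 0. It was at 11.8 FPKM on day 4 with ROS, 7.90 FPKM without, 17.8 FPKM on day 8 with ROS and 4.90 FPKM without. It was at 17.3 FPKM in WT A, 8.92 in WT B, 7.66 in S265A, 16.4 in S265D and 6.03 in S265D-H1120Y. The 3 highest libraries were all of day 8 with ROS, and the day 8 ROS minus library was the lowest of the differentiated ones.

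Aqp7 was at 0.0421 and 0.0847 FPKM on day 0. It was at 10.6 FPKM on day 4 with ROS, 5.85 FPKM without, 31.5 FPKM on day 8 with ROS and 7.04 FPKM without. The transduced libraries were at 23.7 FPKM in WT A, 31.0 in WT B, 15.5 in S265A, 27.4 in S265D and 20.3 in S265D-H1120Y. All libraries of day 8 with ROS stood above all of day 4 and above day 8 without ROS, and the WT libraries differed by only 1.31-fold, the closest of the 7 genes.

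Aqp3 was low throughout, at 0.399 and 0.425 FPKM on day 0. It was at 0.0222 FPKM on day 4 with ROS, 0 without, 0.0221 FPKM on day 8 with ROS and 0.0909 FPKM without. In the transduced cells it was at 0.0305 FPKM in WT A, 0.369 in WT B, 0.0106 in S265A, 0.102 in S265D and 0 in S265D-H1120Y. Every differentiated library was thus below both of day 0, though WT B only just. Its highest value rested on 3482 mapped bases, and it passed the minimum of 0.1 FPKM only through the groups where it was high, so its direction supports nothing about the pathway. Pck1 and Aqp7, under 0.1 FPKM on day 0, likewise passed through differentiated libraries.

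**Figure D2:**
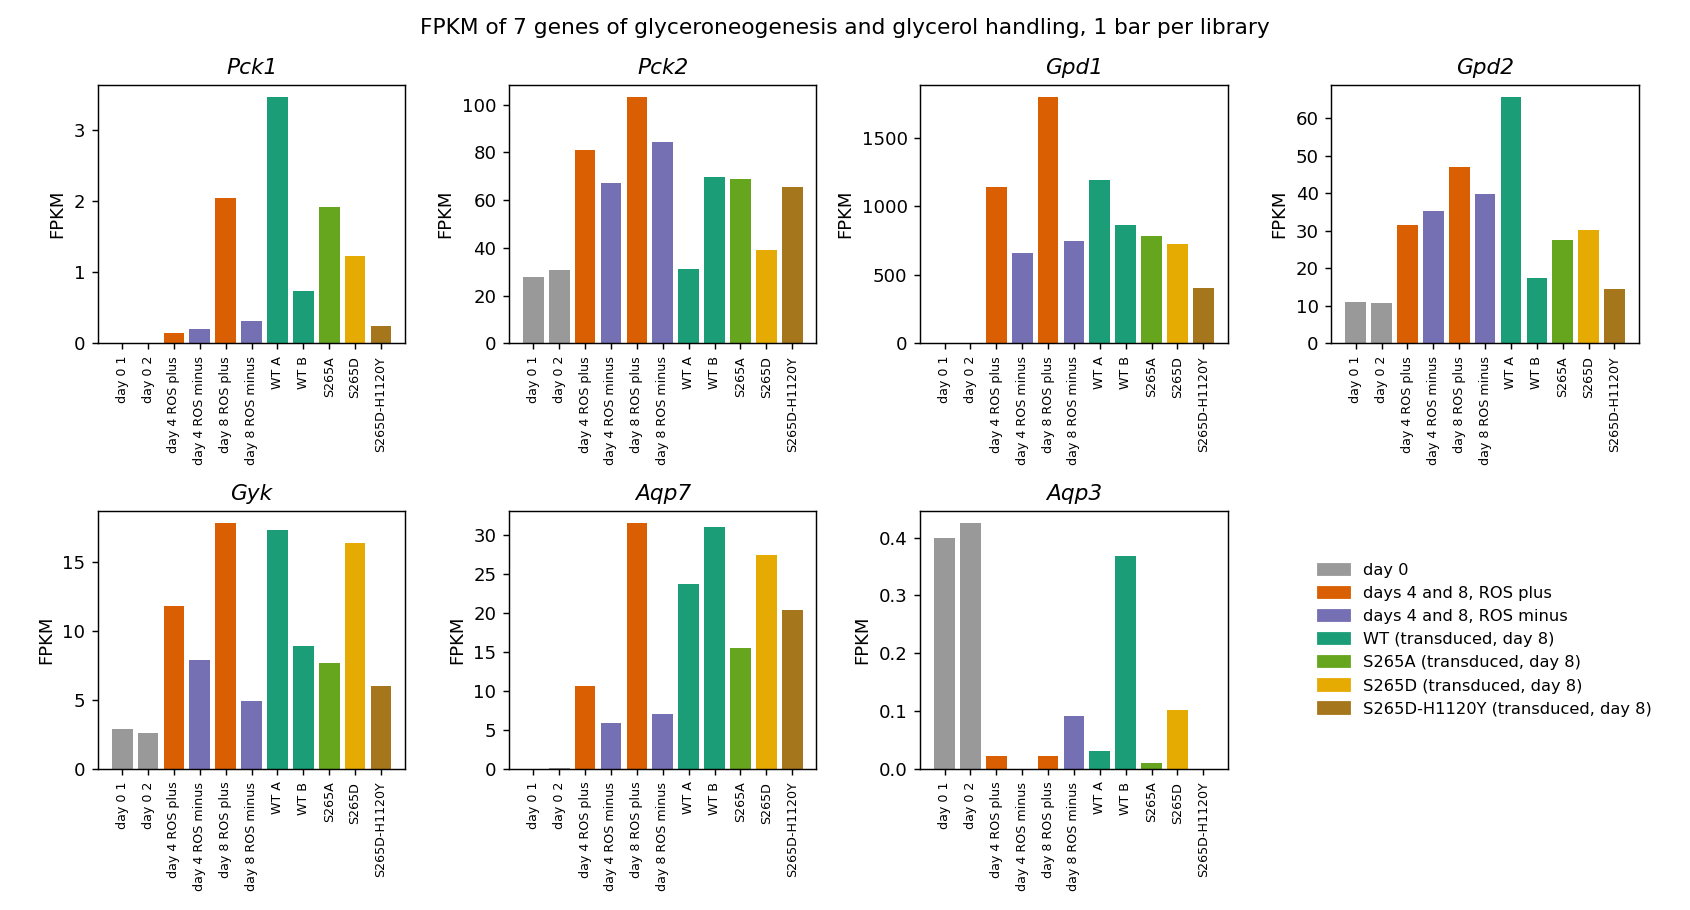
FPKM of each gene (vertical axis, from 0, a scale per panel) in the 11 libraries, 1 bar per library, coloured by group; there is no error bar because most groups are 1 library. 6 genes are higher in all 9 libraries of days 4 and 8 than on day 0, Pck1, Gyk and Aqp7 stand out on day 8 with ROS (2.04, 17.8 and 31.5 FPKM), and the WT A and WT B bars differ widely for Pck1, Gpd2 and Pck2.

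At a 2-fold change on the log2(FPKM + 0.1) scale, Pck1, Pck2, Gyk, Gpd1, Gpd2 and Aqp7 were higher than the day 0 mean on day 4 with ROS (6 of 7, with 15.1% of all 16400 genes tested past the same limit), on day 4 without ROS (6 of 7, 15.5%) and on day 8 with ROS (6 of 7, 17.7%). On day 8 without ROS 5 of 7 were (18.5%), as Gyk was only 1.76-fold above day 0. Aqp3 was the 1 gene at least 2-fold lower in each of the 4, where 14.9%, 12.3%, 21.1% and 11.4% of all genes were. For Pck1, listed at 0 on day 0, no fold is given. In the limma test of the mean of the 4 differentiated libraries against day 0, all 7 genes passed an adjusted p of 0.05, with adjusted p from 0.0115 to 0.0129, but so did 54.7% of all genes. The log2 differences in that test were 11.77 ± 0.15 (SE) for Gpd1, 6.08 ± 0.18 for Aqp7, 1.80 ± 0.03 for Gpd2, 1.76 ± 0.07 for Gyk and 1.51 ± 0.07 for Pck2, with -1.98 ± 0.05 for Aqp3. The only spread in this fit is that of the day 0 pair, and the single libraries are assumed to vary like it. Pck1, at 0 FPKM in both day 0 libraries, had no spread of its own in it. When the fit also took in the WT pair, 3 of the 7 genes, Gpd1, Aqp7 and Gyk, passed, as did 3514 of all 17075 genes. With the first or the second day 0 library left out of that fit, a test chosen after seeing the data in which the WT pair gives the only spread, 0 of 7 passed and 0 of 17075 genes in all, with 2368 and 2477 at an unadjusted p under 0.05, 2 of the members among them each time. The number of calls therefore depended on which libraries gave the spread, and in the main fit the day 0 pair alone gave it.

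From day 4 to day 8 with ROS, Pck1 and Aqp7 were at least 2-fold higher, by 13.6-fold and 2.98-fold in FPKM (2 of 7; 4.74% of all genes were higher and 4.76% lower, with no member among the latter). The ratios of the other 5 genes ran from 1.57-fold for Gpd1 down to 0.995 for Aqp3. Without ROS no member was 2-fold higher or lower between these days, against 7.0% and 2.72% of all genes, and Gyk was at 0.621 times its day 4 level. In limma neither comparison gave a call among all genes (0 of 16400 each), while 4636 and 4518 genes had an unadjusted p under 0.05, among them 4 and 3 of the members.

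ROS plus and minus were compared at each day to ask which genes belong to the beige program that ROS induces. On day 8, 4 of the 7 genes were at least 2-fold higher with ROS, namely Pck1, Aqp7, Gyk and Gpd1, and none was 2-fold lower, where 2.9% of all genes were higher and 10.9% lower. In FPKM the day 8 ratios were 6.67 for Pck1, 4.47 for Aqp7, 3.64 for Gyk and 2.41 for Gpd1. Pck2 at 1.23 and Gpd2 at 1.18 were close to 1, and Aqp3 was at 0.0221 against 0.0909 FPKM. The median log2 ratio of all genes was -0.20, so that the ratios of the 4 genes are a little larger relative to it. After quantile normalization, which brings that median to 0.00, the log2 ratio of Gpd1 was 0.93 and it was no longer past 2-fold, whereas after median-ratio scaling it was 1.46.

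On day 4 no member passed 2-fold in either direction (1.1% of all genes higher, 1.88% lower). Aqp7 was at 1.81, Gpd1 at 1.74, Gyk at 1.49 and Pck2 at 1.21 times its level without ROS, and Gpd2 was at 0.890 and Pck1 at 0.768 times. Pck2, Gyk, Gpd1 and Aqp7 were above the ROS minus library on both days (4 of 7), as were 18.5% of all genes.

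With a single library on each side, these ratios have no replicate of their own. In limma, which borrows the spread of the day 0 pair, ROS gave no call on day 8 or on day 4 among 16400 genes, and the difference between its effects on both days gave none either (0% each). At an unadjusted p under 0.05 there were 5139, 1780 and 2875 genes, with 6, 1 and 4 of the members among them. The adjusted p on day 8 was 0.101 for Pck1 and for Gyk, 0.111 for Aqp7 and 0.140 for Gpd1. Pck1 and Gyk did pass when genes under 1 FPKM were left out (both with adjusted p = 0.0467) and after quantile normalization (both 0.0490). Pck1, however, was at 0 FPKM in both day 0 libraries, so it had no spread of its own in the main fit. Its SE there came from the spread of other genes. With the WT pair also in the limma fit, the adjusted p of Pck1 for ROS on day 8 was 0.734. Over 15 alternatives of the fit, 6 of them added after seeing the data, the adjusted p of Pck1 ran from 0.0387 to 1 and that of Gyk from 0.0467 to 1.

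Cell type markers moved with this comparison. In the day 8 ROS minus library the summed adipocyte markers were 9912 FPKM against 35091 FPKM with ROS, with 3 of 8 markers at least 2-fold higher with ROS, and the summed preadipocyte markers were 559 FPKM, with 484 and 550 FPKM on day 0, against 137 FPKM with ROS. Fabp4 made up 77.0 and 89.5% of the adipocyte sums, which without it were 2281 and 3689 FPKM. Pparg alone of the adipocyte markers went the other way, at 231 FPKM without ROS and 140 FPKM with it. Ly6a made up 88.6% of the preadipocyte sum without ROS, at 495 FPKM, and the other preadipocyte markers summed to 63.9 FPKM without ROS and 29.2 FPKM with it. Among those others, Thy1 at 4.43 FPKM and Cd34 at 19.8 FPKM in the ROS minus library were below both day 0 libraries (13.6 and 14.9 FPKM, 32.3 and 36.9 FPKM), and Pdgfra at 35.2 FPKM was above both (11.9 and 11.8 FPKM). Zfp423 alone of the preadipocyte markers was higher with ROS, at 5.32 against 4.08 FPKM. All 5 beige or brown markers that reached the minimum, Ucp1 among them, were at least 2-fold higher with ROS, and their sum was 230 against 50.1 FPKM. On day 4 the sums were closer, with 33064 against 23685 FPKM for adipocyte and 187 against 235 FPKM for preadipocyte markers. In such bulk samples fewer adipocytes and less of a transcript per adipocyte cannot be told apart, and the part of these shifts in the member ratios was not tested.

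**Figure D3:**
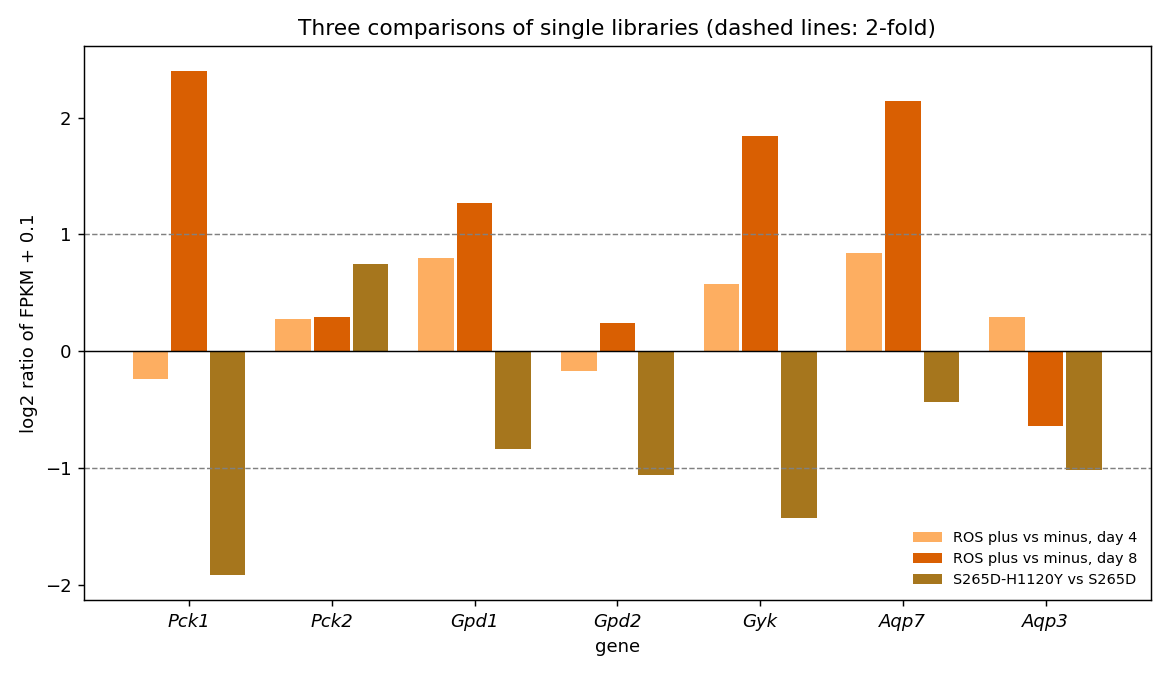
Log2 ratio of FPKM + 0.1 (vertical axis) of each gene for ROS plus against minus on day 4 and day 8 and for S265D-H1120Y against S265D, with 1 library on each side and dashed lines at 2-fold. With ROS on day 8 Pck1 (2.40), Aqp7 (2.15), Gyk (1.84) and Gpd1 (1.27) pass the upper line, and in S265D-H1120Y Pck1 (-1.92), Gyk (-1.43), Gpd2 (-1.06) and Aqp3 (-1.02) pass the lower one. The Aqp3 value compares 0 with 0.102 FPKM and is set by the pseudocount.

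**Figure D4:**
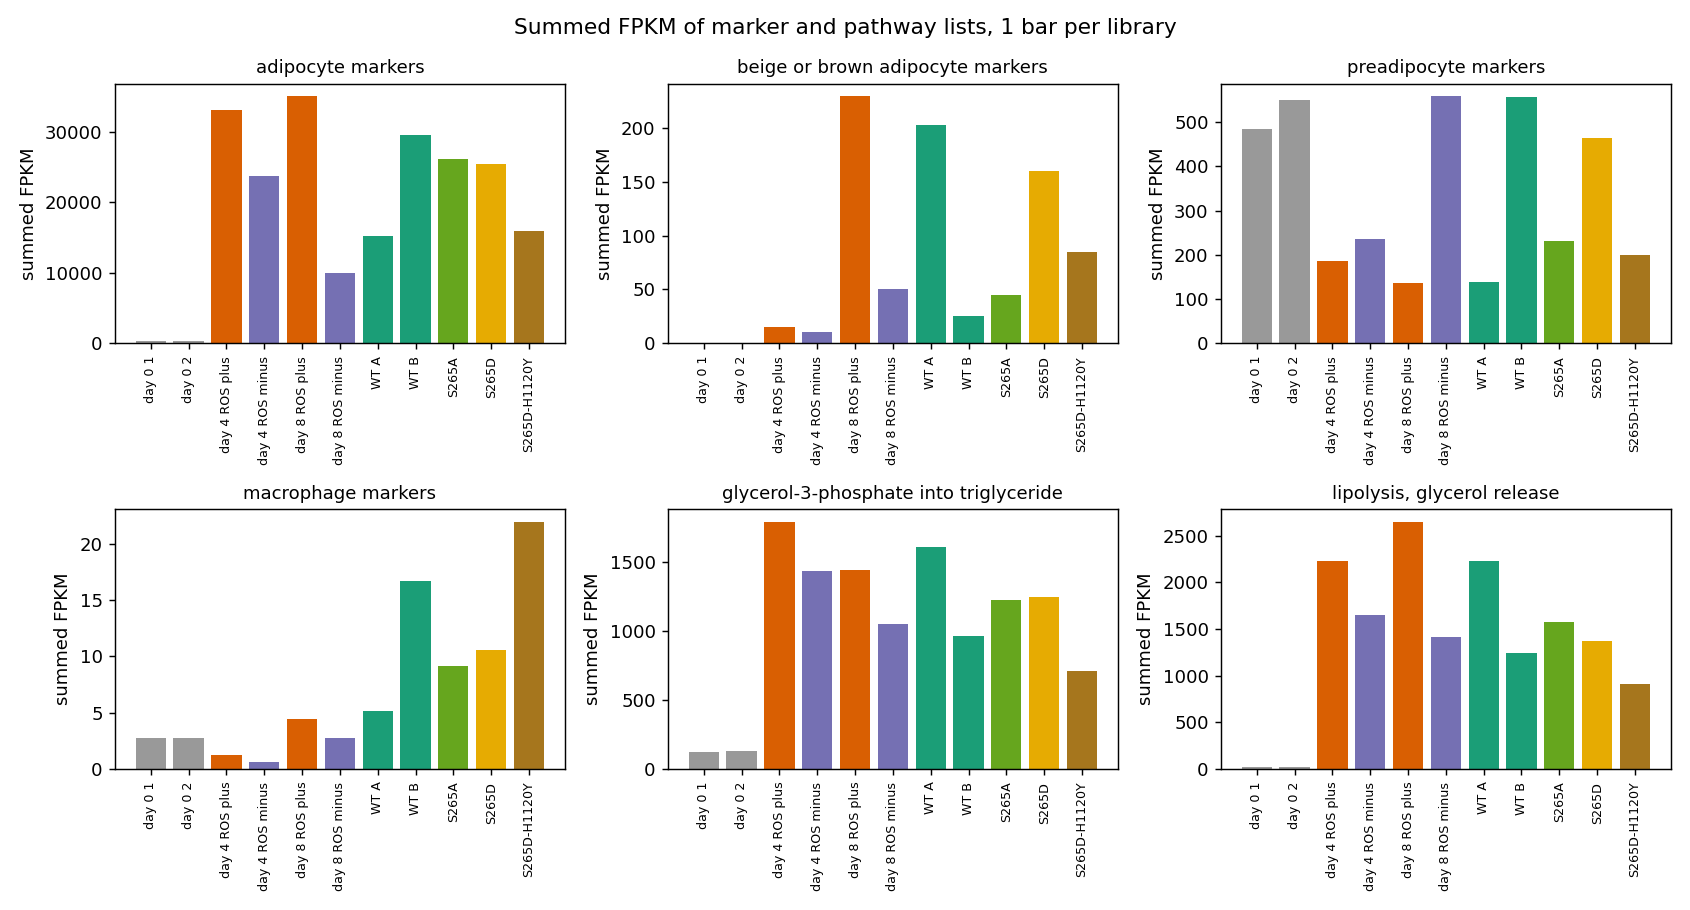
Summed FPKM (vertical axis, from 0) of 4 cell type marker lists and 2 pathway lists in the 11 libraries, 1 bar per library in the colours of the groups. The preadipocyte sum is 559 FPKM in the day 8 ROS minus library, 556 FPKM in WT B and 139 FPKM in WT A, and Ly6a makes up 88.6%, 89.3% and 83.6% of it.

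The transduced cells were compared to ask what the S265 phosphorylation site and the demethylase activity of JMJD1A change. The 2 WT libraries set the spread and were far apart. Relative to WT A, WT B was at least 2-fold higher in Pck2 (2.25-fold) and Aqp3 and at least 2-fold lower in Pck1 (0.212 times) and Gpd2 (0.266 times), so 2 of 7 genes passed in each direction, as did 13.1% and 8.9% of all genes. Preadipocyte markers summed to 556 FPKM in WT B and 139 FPKM in WT A, of which Ly6a was 496 and 116 FPKM and the others 59.5 and 22.8 FPKM, and beige or brown markers to 25.6 and 202 FPKM. Adipocyte markers summed to 29520 FPKM in WT B and 15177 FPKM in WT A, and without Fabp4 to 2618 and 2784 FPKM. The labels do not tie either WT library to a mutant, and a value between WT A and WT B cannot be told from WT. In the order of levels over all 11 libraries, 6 other libraries stood between WT A and WT B for Gpd2, 4 for Pck2, 3 for Pck1, 2 each for Gyk and Aqp3 and 1 each for Gpd1 and Aqp7, and these neighbours do not differ beyond the WT spread.

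In the library labelled S265A, which cannot be phosphorylated at this site, no member was 2-fold higher than the WT mean (1.77% of all genes) and only Aqp3 was 2-fold lower (1 of 7; 4.03%). Pck1, Pck2 and Gpd2 lay between WT A and WT B. Gyk at 7.66 FPKM, Gpd1 at 781 FPKM and Aqp7 at 15.5 FPKM were below both WT libraries. Aqp7 was at 0.566 times the WT mean of 27.3 ± 5.13 FPKM (SD, n = 2). The share of all genes below both WT libraries was not counted. In the library labelled S265D, a change meant to mimic phosphorylation, no member differed 2-fold from the WT mean (2.15% of all genes higher, 2.66% lower). Gpd1 at 725 FPKM was below both WT libraries and the other 6 genes lay between them.

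In the library labelled S265D-H1120Y, Pck1, Gyk, Gpd2 and Aqp3 were at least 2-fold lower than in S265D (4 of 7; 6.04% of all genes) and none was 2-fold higher (3.71%). In FPKM, Pck1 was at 0.204, Gyk at 0.367 and Gpd2 at 0.478 times the S265D level, and Gpd1 at 0.560 and Aqp7 at 0.740 times. Pck2 was the exception, at 1.68 times. Pck1, Gyk, Gpd1 and Gpd2 were each lowest in S265D-H1120Y among the 5 transduced libraries, and the share of all genes lowest there was not counted. Against the WT mean 5 of 7 genes, these 4 and Aqp3, were at least 2-fold lower (6.58% of all genes) and none was 2-fold higher (3.94%). Against WT B alone 3 of 7 were 2-fold lower, since Gyk at 6.03 against 8.92 FPKM and Gpd2 at 14.5 against 17.5 FPKM were then nearer. Pck1 and Gpd1 were lower by this limit against the mean and against each WT library. With a pseudocount of 1 Pck1 and Aqp3 were not past 2-fold against S265D, which left 2 genes. The Aqp3 ratio rested on 0 mapped bases in S265D-H1120Y against 894 in S265D and was set by the pseudocount, so its place in these counts supports nothing.

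Markers moved here as well. The sum of the adipocyte markers was 15922 FPKM in S265D-H1120Y against 25505 FPKM in S265D, of which Fabp4 was 88.7 and 89.7%, and the other adipocyte markers summed to 1794 against 2632 FPKM. The preadipocyte sum was 200 against 464 FPKM, and 34.6 against 46.9 FPKM without Ly6a. Beige or brown markers summed to 84.6 against 160 FPKM, and 3 of the 5 that reached the minimum were at least 2-fold lower. Macrophage markers summed to 22.0 against 10.5 FPKM, with Cd68 at 21.7 FPKM and Emr1 and Ptprc at 0. Their part in the member ratios was not tested. Tested by limma on the spread between both WT libraries, S265A against WT, S265D against WT and S265D-H1120Y against S265D gave no call among 16402 genes (0% each), 73, 77 and 146 genes had an unadjusted p under 0.05, and no member was among them. The log2 difference of Pck1 between S265D-H1120Y and S265D was -1.92 ± 1.35 (SE), and that of Gyk was -1.43 ± 0.67.

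**Figure D5:**
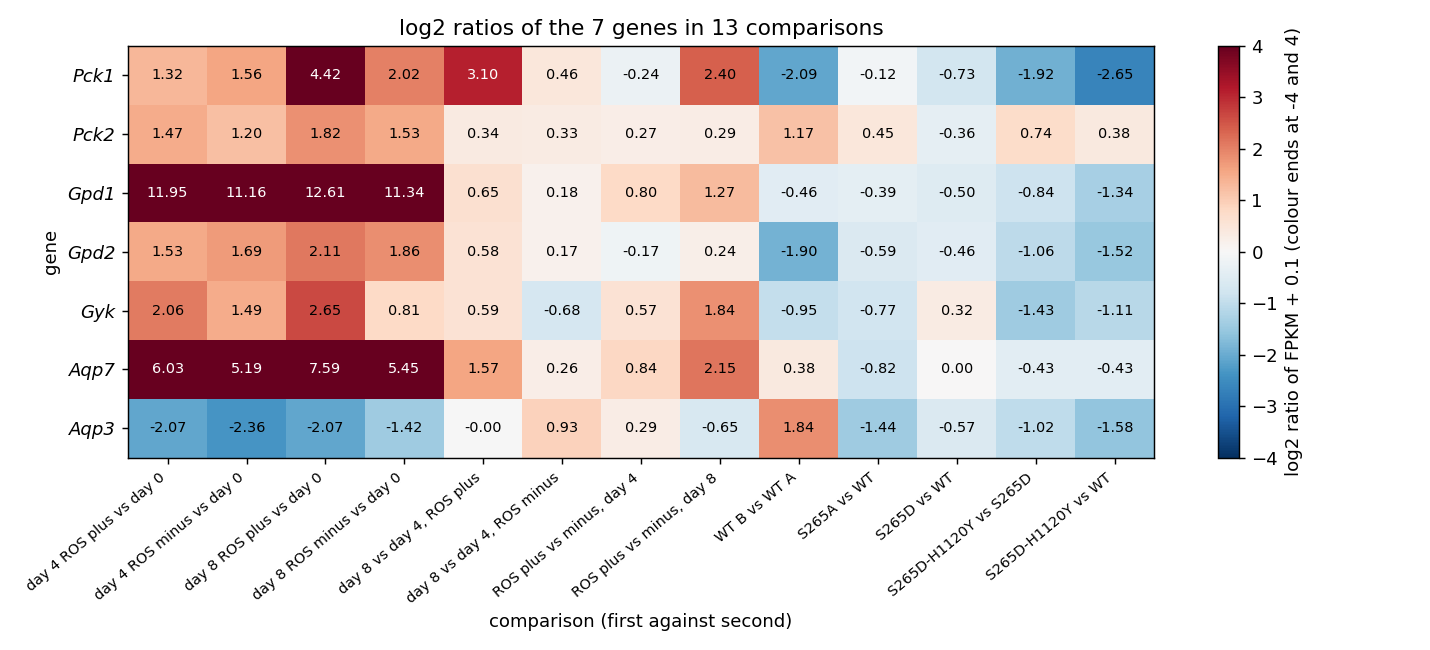
Log2 ratio of FPKM + 0.1 of each gene (rows) in 13 comparisons (columns), with the value printed in each cell and red for higher and blue for lower in the first-named library; the colour ends at -4 and 4. The 4 columns against day 0 are red for 6 genes and blue for Aqp3, and the columns of S265D-H1120Y are blue for all but Pck2.

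The genes around these steps were described from lists. Of 13 measured genes that supply carbon to phosphoenolpyruvate, 7 were at least 2-fold higher and 1 lower on day 8 with ROS than on day 0, with a median log2 ratio of 1.13 against -0.15 for all genes. Pcx (pyruvate carboxylase, which makes the oxaloacetate that Pck1 and Pck2 use) was highest, at 637 FPKM from 22.6 and 22.8, and Slc25a13, a mitochondrial aspartate-glutamate carrier, was lowest, at 1.00 FPKM from 9.001 and 8.218. Of 8 measured genes of the steps between phosphoenolpyruvate and dihydroxyacetone phosphate, 1 was higher and 2 were lower, with a median of -0.56. These middle steps are reversible and shared with glycolysis, and their summed level was 5788 FPKM on day 8 with ROS against 6103 and 6460 FPKM on day 0.

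Of the 10 genes that put glycerol-3-phosphate into triglyceride, 7 were 2-fold higher and 1 was lower on day 8 with ROS than on day 0, with a median log2 ratio of 3.13, and Dgat2, which adds the last acyl chain, was the highest, at 192 FPKM from 2.69 in both day 0 libraries. All 5 genes of lipolysis, which frees glycerol, were higher, with a median of 7.60 and G0s2, an inhibitor of adipose triglyceride lipase, the highest at 11.02. Of 12 genes known to regulate Pck1, 7 were higher and 1 was lower, with a median of 1.42, and Cebpa was the highest at 281 FPKM from 0.789 and 1.04. Of 6 other aquaporins, kinases and glycerol-3-phosphate enzymes that reached the minimum, 2 were higher and 2 were lower, the lower ones being the aquaporins Aqp1 and Aqp5. Aqp1, a water channel, was the lowest of them at 0.0990 FPKM from 12.3 and 14.3.

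Between ROS plus and minus on day 8, at least 2-fold higher were 1 of 13 carbon supply genes (Ldhb, at 64.0 against 30.2 FPKM), 1 of 10 triglyceride genes (Lpin1, a phosphatidate phosphatase, at 137 against 47.8 FPKM), 2 of 5 lipolysis genes (Pnpla2, adipose triglyceride lipase, highest at 924 against 306 FPKM) and 0 of 12 regulators, of which Ppargc1a had the highest ratio, at 5.09 against 3.19 FPKM. Their median log2 ratios were 0.09, 0.04, 0.80 and 0.11, where that of all genes was -0.20. Between S265D-H1120Y and S265D, 0 of 5 lipolysis genes and 0 of 12 regulators passed 2-fold, with medians of -0.74 and -0.23, and in the triglyceride list 1 of 10 was lower, Agpat2 at 205 against 597 FPKM.

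Genes whose levels went most like those of 4 members over the 11 libraries were named by Pearson correlation of log2(FPKM + 0.1) among 13615 genes, as a description only, since the day 0 libraries stand far from the rest and set much of it. Gpd1 was closest to Adipoq (r = 0.998), followed by Cidec, Sort1, Slc2a4 and Mgll. Aqp7 was closest to Tusc5 (0.990), and Mrap, Cd36 and Slc25a34 were also near it. Gyk was closest to Hadha (0.971), a subunit of the mitochondrial β-oxidation enzyme, then Rps6ka5, Ephx2, Gys2 and Tapt1. Pck1 was closest to mKIAA1188 and Clmn (0.977 each), which had nearly equal values in every library, then Zfp362, 1700037H04Rik and Pcyox1. Of the other members, Aqp7 was nearest to Gpd1 (0.961), Aqp7 nearest to Gyk (0.846) and Gyk nearest to Pck1 (0.820), whereas Pck2 had only 0.246 with Pck1.

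Several transcripts were listed for 6 of the 7 genes and 1 for Aqp3. The 4 Gyk transcripts gave nearly the same values, with highest levels between 17.5 and 17.8 FPKM. A short Gpd2 transcript of 3904 bases reached only 13.4 FPKM, against 65.6 FPKM for the one used, and a short Pck1 transcript of 1211 bases reached 1.52 FPKM against 3.46. With the transcript of highest mean FPKM in place of the flagged one, each count of genes past 2-fold stayed within 1.5 times.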

How the data were processed

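RNA-seq of 11 libraries was analysed, grouped by the sample labels. The authors mapped reads with BWA against mm9 (named in the submitters' processing notes too) and UCSC transcripts, with a local realignment, and deposited strand-specific FPKM per transcript. A deposited signal column (coverage) holds the bases mapped to each transcript. The deposited log columns were not used, and 0 columns of other series were present. Neither unit holds whole reads, and no test for counts was run. Depth was 3.10 to 5.29 Gb of mapped bases per library, at which 100 bases on 2 kb of exon are worth 0.00944 to 0.0161 FPKM.

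Sense rows flagged as representative of their gene were used, at 0.1 FPKM or more in 1 library of the experiment, with a pseudocount of 0.1. Ratios of at least 2 or at most 0.5 were counted, and limma (version 3.58.1, R 4.3.3; trend, Benjamini-Hochberg at 0.05) was run with 1 residual degree of freedom in each experiment after the script was tested on simulated data. No test was made with 1 library a group outside these fits. Both pairs were compared: the median squared difference over genes with at least 10000 mapped bases was 2.06 times the sampling noise in the day 0 pair and 23.2 times in the WT pair, so neither was counted as 1 library. Motifs were searched in RefSeq windows. Python 3.11.15, numpy 2.4.6, pandas 2.3.3 and matplotlib 3.10.9 were used.

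The members and gene lists were chosen with earlier results of these data known. Named were the members, the 5 genes most like each of 4 of them among genes at 1 FPKM or more, and the genes with the highest or lowest ratio of a list. Of the genes most like a member, 1 is not reported here. Marker genes and genes with which a value is read are named besides, some chosen after their values were seen. Alternatives changed the pseudocount, minimum, transcript, scaling, reference library and limma fit. The limma fits without 1 library of a pair and with the ROS label as a term were added after the data were seen.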

Additional observations from a re-analysis of the deposited data

Results flagged for a closer look

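Pck1, Gpd2, Aqp3 and Gyk moved in opposite directions in the ROS comparison or over time, each with 1 library a side. How many of all genes do so was not counted. The day 4 values of Pck1 rested on only 1988 mapped bases with ROS and 1590 without. The log2 ratio of ROS plus to minus was -0.24 on day 4 and 2.40 on day 8 for Pck1, a difference of 2.64, and -0.17 and 0.24 for Gpd2, a difference of 0.41. For Aqp3 it was 0.29 and -0.65, a difference of -0.93, on levels under 0.1 FPKM. Gyk was above its day 4 level on day 8 with ROS (0.59) and below it without (-0.68), a difference of 1.27. In limma the difference gave an adjusted p of 0.260 for Pck1, Gyk and Aqp3 and 0.279 for Gpd2, so none passed.

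The antisense rows, which no comparison above uses, were above both day 0 libraries in all 9 differentiated libraries for Gpd1, Gpd2 and Aqp7. How many antisense rows of all genes were so was not counted. Those of the 3 members reached 3.49 FPKM for Gpd1, 0.219 FPKM for Gpd2 and 0.274 FPKM for Aqp7. On day 0 they were at most 0.117, 0.0114 and 0.0169 FPKM. In the differentiated libraries they were 0.0625 to 0.293% of the sense row for Gpd1, 0.126 to 0.451% for Gpd2 and 0.678 to 1.63% for Aqp7, and on day 0 they were 29.9 to 52.4% for Gpd1 and at least 19.9% for Aqp7, with sense rows of at most 0.222 and 0.0847 FPKM. Between ROS plus and minus on day 8 the Gpd1 antisense row was at 1.12 against 1.85 FPKM, where the sense row was at 1794 against 745 FPKM. Whether they come from the sense transcript was not tested.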

How the results depend on the processing

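Of 47 member ratios past 2-fold, none changed sign under the alternatives that leave out no library. Among 314 such values 15 fell under 2-fold, most of them those of Aqp3 and Pck1 with a pseudocount of 1. With a pseudocount of 1 or a minimum of 1 FPKM, which removes Aqp3, no member was 2-fold lower than day 0 in the 4 comparisons (0 in place of 1) or in S265A against WT (0 in place of 1), and 1 in place of 2 was higher in WT B than WT A. With a pseudocount of 1, 2 in place of 4 were lower in S265D-H1120Y than in S265D, and Pck1 was under 2-fold against day 0 on day 4 and on day 8 without ROS. Without any pseudocount 0 were lower on day 4 without ROS than on day 0, where Aqp3 at 0 has no ratio, and 1 was lower with ROS on day 8 (Aqp3).

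With 1 WT library as reference, the members 2-fold higher in S265A were 1 and 1 (Pck1 without WT A, Pck2 without WT B) and those lower 1 to 2, those lower in S265D 1 to 2, and in S265D-H1120Y 3 to 4 (5 against the mean) were lower and 0 to 1 higher. Leaving out either day 0 library changed no count by over 1.5 times.

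In limma, the fit of all 11 libraries called 3 in place of 7 members and 3514 in place of 8977 genes for the mean of days 4 and 8 against day 0. For ROS on day 8, 2 members were called with a minimum of 1 FPKM (948 genes) and 2 after quantile normalization (569 genes), each time Pck1 and Gyk. Without a minimum, Pck1 alone was called (1 member) for ROS on day 8 (1492 genes), for day 8 against day 4 with ROS (1250 genes) and for the difference of the ROS effects (1717 genes), and 1293, 1067, 697, 738 and 1006 genes in the other time-course and the 3 transduced comparisons, with no member. Pck1 was at 0 FPKM in both day 0 libraries and so had no spread of its own in the fit without a minimum. With 1 additive ROS effect 1389 genes were called between days 8 and 4, again with no member. Leaving 1 library of a pair out of the fit of all 11, an alternative chosen after seeing the data in which the single libraries are assumed to vary like the remaining pair, gave 0 to 7 member calls in the time course: 0 without either day 0 library (0 genes in place of 8977) and 7 without WT A or WT B (8672 and 8675 genes). The transduced comparisons had 0 in each. In the additive fit without the first or the second day 0 library, also added, each member kept its direction against day 0. The log2 differences ran from 11.60 and 11.95 for Gpd1 to -2.02 and -1.94 for Aqp3. Replicate numbers gave no pairing, because the labels number replicates only in the WT pair. With the ROS label, which the day 0 libraries carry too, as a term over days 0, 4 and 8 (added after seeing the data), 7 of 7 members and 7987 genes were called for days 4 and 8 against day 0. Depth limits Aqp3 throughout, and Pck1 on day 4, on day 8 without ROS (3479 mapped bases), in S265D-H1120Y (2987) and in WT B (7054).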
